A study of Homo sapiens with 60 samples.

Results

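The transcriptional responses of HepG2 cells to rising doses of 2 herbal extracts, schisandra and yijin, were set against each other gene by gene. HepG2, derived from a human liver cancer, still expresses many hepatocyte genes, and all groups here are this line after 24 h in culture with an extract or with vehicle. Schisandra is an extract of Schisandrae Fructus, the dried fruit of Schisandra, made in 70% ethanol, and yijin is a hot-water extract of Yijin-tang, a decoction of several herbs. The measure is a difference of differences, computed for each gene on the log2 scale as the change between the high dose (500 µg/mL) and the low dose (20 µg/mL) of schisandra, minus the change between the same doses of yijin. It rests on 12 of the 60 libraries of the series, which are 3 of schisandra high, 3 of schisandra low, 3 of yijin high and 3 of yijin low. Libraries of the medium dose (100 µg/mL, 3 per extract) and of vehicle (3) are given beside them. A positive difference means that a gene rose more, or fell less, with schisandra than with yijin. The extracts carry different sample codes (9 for schisandra, 8 for yijin), so no level of one was tested against a level of the other, and each change lies within its own code. The extraction solvent also differs between the extracts and cannot be told apart from the herbs. The labels give the vehicle as 0.1% dimethyl sulfoxide and the series text gives 2%. Whether replicates were separate cultures is not stated, so the spread behind the p-values may be technical. That spread was estimated over all 54 libraries in the 19 groups of the fit, and not from these 12 alone.

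Several of the genes described below are textbook readouts of known sensors. The aryl hydrocarbon receptor (AhR) binds planar aromatic compounds, many of them from plants, and switches on CYP1A1. The factor NRF2 is released by electrophiles and raises detoxifying and antioxidant enzymes. The factor MTF1 senses free zinc and drives metallothioneins and the zinc exporter SLC30A1. The kinases of the integrated stress response favour translation of ATF4, which raises amino acid synthesis genes such as ASNS, while misfolded protein in the endoplasmic reticulum raises chaperones such as HSPA5 through ATF6 and XBP1. Sterol synthesis is driven by SREBP2, which is active when cell sterols are low.

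The RefSeq promoters of 4 of these readouts are shown because CYP1A1, SLC30A1, ASNS and HSPA5 each differed between the extracts. Each sequence runs 5′ to 3′ on the gene's own strand, from 250 bases before the annotated start to 50 bases after it (build GRCh38.p14, all 4 genes on the minus strand), and capitals mark matches to the motif named for that gene. Both strands were searched, and no marked match overlapped a match to another of the 7 motifs searched.
CYP1A1, chr15:74725479-74725778: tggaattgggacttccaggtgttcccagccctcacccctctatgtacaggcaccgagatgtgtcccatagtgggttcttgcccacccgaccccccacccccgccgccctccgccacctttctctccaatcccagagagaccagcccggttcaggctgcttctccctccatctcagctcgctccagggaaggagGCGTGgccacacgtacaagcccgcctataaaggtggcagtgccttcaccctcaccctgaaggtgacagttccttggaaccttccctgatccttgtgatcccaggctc
SLC30A1, chr1:211579112-211579411: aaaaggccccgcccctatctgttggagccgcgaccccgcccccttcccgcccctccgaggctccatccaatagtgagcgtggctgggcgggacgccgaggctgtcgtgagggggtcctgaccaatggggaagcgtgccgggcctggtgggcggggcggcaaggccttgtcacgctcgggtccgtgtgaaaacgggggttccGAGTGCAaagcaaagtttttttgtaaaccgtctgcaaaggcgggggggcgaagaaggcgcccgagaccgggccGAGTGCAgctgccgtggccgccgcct
ASNS, chr7:97872359-97872658: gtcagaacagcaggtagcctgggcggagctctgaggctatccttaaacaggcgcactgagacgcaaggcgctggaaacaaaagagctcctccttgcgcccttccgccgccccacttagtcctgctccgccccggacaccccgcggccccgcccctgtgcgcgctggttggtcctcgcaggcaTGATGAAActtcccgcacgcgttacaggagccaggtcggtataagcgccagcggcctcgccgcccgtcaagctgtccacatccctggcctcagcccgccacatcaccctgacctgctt
HSPA5, chr9:125241294-125241593: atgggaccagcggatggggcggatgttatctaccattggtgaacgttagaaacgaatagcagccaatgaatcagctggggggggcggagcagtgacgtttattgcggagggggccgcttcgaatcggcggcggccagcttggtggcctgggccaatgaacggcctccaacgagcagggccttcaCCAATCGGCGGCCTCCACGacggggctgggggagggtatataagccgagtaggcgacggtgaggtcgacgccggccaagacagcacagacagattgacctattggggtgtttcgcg
The CYP1A1 promoter holds 1 match to the core that AhR binds (GCGTG), a motif found in 36.5% of 35116 promoters of this length. SLC30A1 holds 2 matches to the metal response element of MTF1 (TGCNCNC, on the opposite strand), found in 55.9% of promoters. ASNS, listed with 2 starts of which the first is shown, holds 1 match to the amino acid response element of ATF4 with a C/EBP partner (TGATGNAA), found in 3.62%. HSPA5 holds 1 match to the endoplasmic reticulum stress element (CCAAT, then 9 bases of any kind, then CCACG), found in 0.0769%. These matches describe the letters only.

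The 12 libraries held 23.5 to 38 M expected counts, against 20.7 to 38 M over all 60. Replicate 1 of schisandra low stood apart. It was the deepest library, with the next of the 12 at 30.7 M, and its log2 levels deviated from those of its replicates with an SD of 0.283, against 0.12 to 0.187 in the other 11. No replicate pair among the 12 was identical. Hepatocyte and hepatoma markers such as ALB and AFP were present, with all 11 listed markers above 0 and summed levels of 49600 to 52100 CPM (a gene's counts scaled to a common library total) in schisandra high, 49000 to 51500 in schisandra low, 45400 to 46700 in yijin high and 46100 to 50700 in yijin low. Among markers of other cell types, LYZ had 460542 counts in the 12 libraries together, CD68 12298 and the pericyte and fibroblast gene PDGFRB 4390, and each other fibroblast, leukocyte or endothelial marker had 1205 or fewer. The fibroblast list summed to 12.3 to 18.2 CPM and the endothelial list to 4.45 to 6.59 CPM over the 4 groups. PTPRC, carried by all leukocytes, had 1 count in the 12 libraries together and the T cell gene CD3E had 0, but LYZ, lysozyme, made up nearly all of a leukocyte list that summed to 1650 to 1740 CPM in schisandra high, 1150 to 1360 in schisandra low, 1640 to 1720 in yijin high and 1210 to 1230 in yijin low. LYZ itself rose in both extracts, by 0.43 ± 0.056 in schisandra and 0.46 ± 0.056 in yijin on the log2 scale, with a difference of −0.034 ± 0.079. The part of these marker levels in the results below was not tested. Counts are relative within a library, so fewer cells that express a gene and less of its RNA per cell cannot be told apart.

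Of 16924 genes tested, 162 were called in the difference of dose responses (0.957%), 92 with a positive difference (0.544%) and 70 with a negative one (0.414%). A gene is called when its p-value from edgeR's quasi-likelihood test, adjusted over all tested genes by Benjamini and Hochberg, is under 0.05, and all adjusted p-values below are of this kind. Each change alone gave far more calls, with 1240 genes (7.33%) in schisandra high against low, with 664 higher (3.92%) and 576 lower (3.4%), and 1318 genes (7.79%) in yijin high against low, with 640 higher (3.78%) and 678 lower (4.01%). With libraries scaled by their totals alone, positive differences made up 46.5% of the calls, against 56.8% here, and genes higher at the high dose made up 29.1% of the schisandra calls and 35.9% of the yijin calls, against 53.5% and 48.6% here. The differences were small, with a median size of 0.35 on the log2 scale among the 162, and 26 reached 1.5-fold and 6 reached 2-fold. Sorted by the changes within each extract, 9 of the 162 genes were called in both with unlike signs, 4 in both with 1 sign and the larger change in schisandra, 6 in both with the larger change in yijin, 56 in schisandra alone, 74 in yijin alone and 13 in neither. Here and below, alone means called in that extract and not in the other, which may still have changed. A call in 1 extract alone rarely carried a difference that passed the test, since 808 genes (4.77%) were called in schisandra and not in yijin of which 56 were called in the difference (0.331% of the genes tested), and 886 (5.24%) were called in yijin and not in schisandra, of which 74 were (0.437%).

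**Figure D1:**
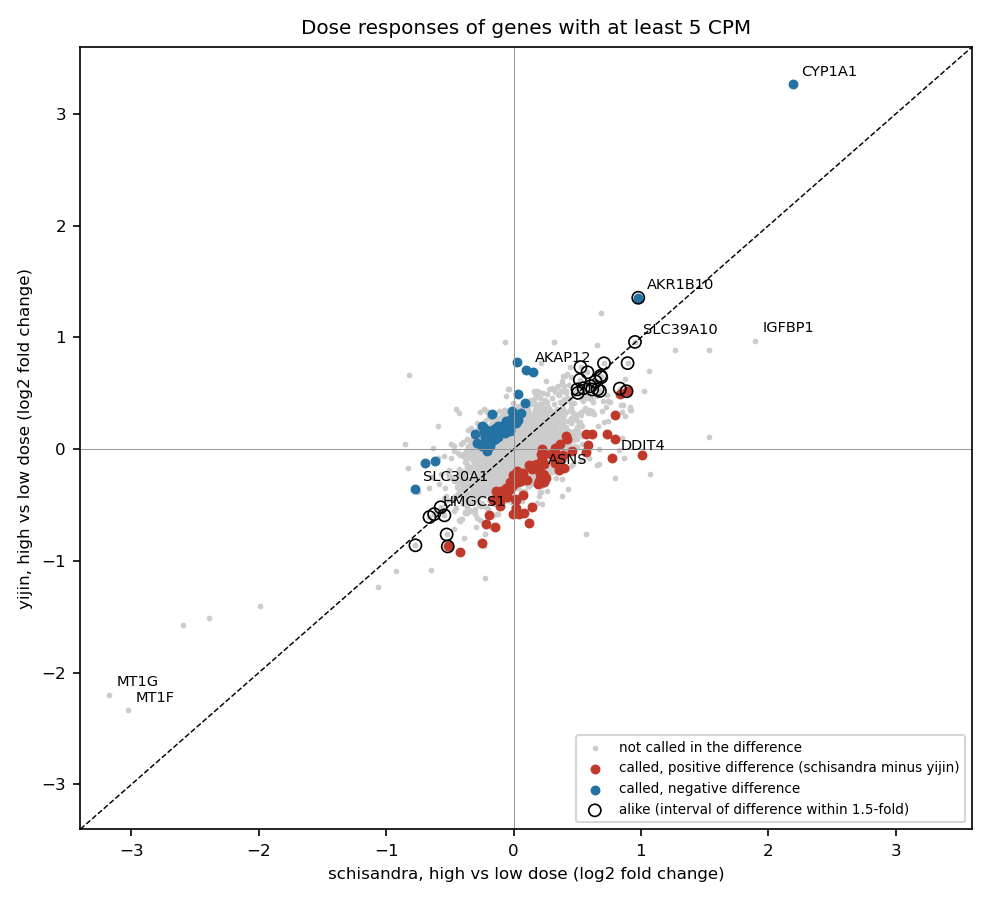
Each point is 1 of 10870 genes with at least 5 CPM in the highest of the 4 groups, placed by its log2 change between high and low dose in schisandra (x axis) and in yijin (y axis). Red and blue points were called in the difference, with positive and negative sign, circles mark genes alike in both, and most points lie near the dashed line of equal change or near 0.

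Across these 10870 genes the changes in the 2 extracts, which share no library, had a Pearson correlation of 0.47, given as a description since genes are not independent replicates. The number of calls depended on single libraries. Leaving out each of the 12 libraries in turn gave 52 to 519 calls, with 52 without replicate 1 of schisandra low (47 of them among the 162) and 519 without its replicate 3. With a spread estimated from the 12 libraries alone, 3 genes were called (AKAP12, CYP1A1 and DDIT4), and 161 of the 162 kept their sign. Base composition moved with the sign of the call, with a median transcript GC content of 57.2% in the 92 positive genes, 41.9% in the 70 negative genes and 48.9% over all tested genes. After a correction of each library for transcript length and GC content, all 162 kept their sign and 102 were still called. The 34 genes called in all 12 fits that leave out 1 library and again after this correction are called stable below, and they include CYP1A1, AKAP12, DDIT4, ASNS and HSPA5. Each of the other called genes lost its call in at least 1 of these fits. Stable does not cover the fit of the 12 libraries alone. Only the 3 genes named above were called there, so ASNS and HSPA5 were not.

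CYP1A1, which encodes a cytochrome P450 that oxidises polycyclic aromatic compounds, rose with both extracts and rose further with yijin. It had 34.1, 32.7 and 33.0 CPM in schisandra high, against 7.64, 7.09 and 6.97 CPM in schisandra low, and 73.6, 71.1 and 73.2 CPM in yijin high, against 7.31, 8.15 and 7.09 CPM in yijin low. Every high-dose library lay above every low-dose library of its extract, and the low-dose libraries of both extracts lay close to vehicle, at 8.09, 7.51 and 8.26 CPM. The change was 4.58-fold in schisandra (log2 2.20 ± 0.075, adjusted p = 7.82e-26) and 9.65-fold in yijin (log2 3.27 ± 0.075, adjusted p = 2.90e-33). The difference was −1.07 ± 0.11 on the log2 scale (95% interval −1.29 to −0.86, adjusted p = 1.34e-08), with the smallest adjusted p of all tested genes. CYP1A1 (ENSG00000140465) lies on chromosome 15 at 74719542 to 74725610 (GRCh38).

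Other AhR targets were expressed at low levels. Of 8 tested, 2 rose in schisandra and 3 in yijin, none fell, and CYP1A1 was the 1 member called in the difference. Over all tested genes, 3.92% rose and 3.4% fell in schisandra, and 3.78% rose and 4.01% fell in yijin. In the difference 0.957% were called. The same shares apply beside the counts of every list below. ALDH3A1, an aldehyde dehydrogenase, had 0.864, 0.805 and 0.626 CPM in schisandra high, against 0.525, 0.624 and 0.568 CPM in schisandra low, and 1.39, 1.22 and 1.53 CPM in yijin high, against 0.504, 0.889 and 0.521 CPM in yijin low. It rose in yijin (log2 1.10 ± 0.27, adjusted p = 0.00443), and its difference of −0.66 ± 0.39 did not pass the test (adjusted p = 0.463). AHRR, the AhR repressor, had a difference of the other sign, 0.94 ± 0.37, that also did not pass (adjusted p = 0.229).

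Most genes of the NRF2 programme rose in both extracts, and 2 members differed. Of 24 tested, 16 rose and 1 fell in each extract, and 16 were called in both with 1 sign. The median change was 0.32 in schisandra and 0.30 in yijin, against −0.0058 and −0.0028 over all tested genes, and the median difference was −0.065. The members that were called differed in opposite directions, HMOX1 toward schisandra and AKR1B10 toward yijin.

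HMOX1, haem oxygenase, had 74.1, 73.7 and 67.9 CPM in schisandra high, against 57.3, 58.8 and 55.2 CPM in schisandra low, and 55.2, 52.2 and 53.9 CPM in yijin high, against 53.8, 58.3 and 57.9 CPM in yijin low. The schisandra doses did not overlap, and the yijin doses did. The gene rose by 0.33 ± 0.057 in schisandra (adjusted p = 5.92e-05), stood at −0.077 ± 0.058 in yijin (adjusted p = 0.548), and had a stable difference of 0.41 ± 0.081 (adjusted p = 0.00491). AKR1B10, an aldo-keto reductase that clears reactive aldehydes, had 91.6, 97.9 and 95.4 CPM in schisandra high, against 53.1, 44.8 and 46.2 CPM in schisandra low, and 116, 118 and 125 CPM in yijin high, against 44.6, 45.4 and 50.0 CPM in yijin low. It rose in both, by 0.98 in schisandra and 1.36 in yijin, and the difference of −0.38 ± 0.077 (adjusted p = 0.00765) was not called without replicate 1 of schisandra low (adjusted p = 0.0731). For NQO1, a quinone reductase, the changes were 0.38 in schisandra and 0.61 in yijin, and the difference of −0.23 ± 0.068 did not pass (adjusted p = 0.0829). GCLM, the modifier subunit of the enzyme that starts glutathione synthesis, rose by 0.58 in schisandra and 0.69 in yijin, with a 95% interval of the difference from −0.33 to 0.11.

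**Figure D2:**
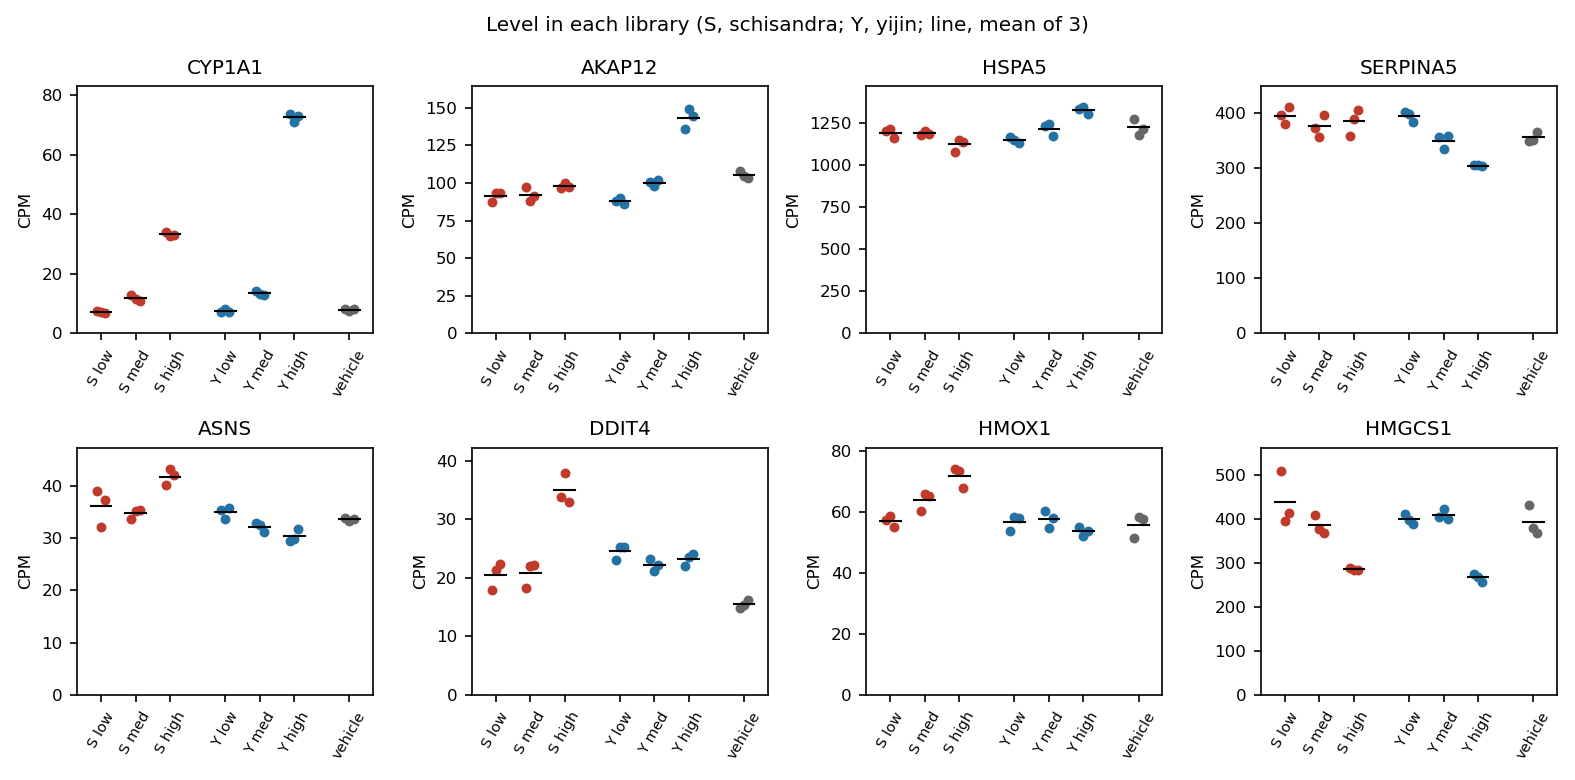
Level in CPM (y axis, from 0) of 8 genes in each library (points) with means of 3 (lines), for schisandra low, medium and high dose in red, yijin low, medium and high dose in blue and vehicle in grey. CYP1A1 was higher at the high dose of both extracts, AKAP12, HSPA5 and SERPINA5 differed between doses of yijin, DDIT4 and HMOX1 between doses of schisandra, ASNS moved in opposite directions, and HMGCS1 fell in both.

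Metal response genes fell in both extracts. All 8 tested (7 metallothioneins, which bind zinc and copper, and SLC30A1) fell in schisandra and all 8 fell in yijin, with a median change of −2.49 in schisandra and −1.54 in yijin. The median difference was −0.79 with 8 of 8 members below 0, and SLC30A1 was the 1 member called in the difference. After the length and GC correction 3 members were called, all negative, with a median difference of −0.84. SLC30A1, which exports zinc from the cytosol, had 64.3, 61.1 and 66.2 CPM in schisandra high, against 123, 99.6 and 104 CPM in schisandra low, and 83.5, 77.3 and 75.3 CPM in yijin high, against 107, 98.6 and 97.4 CPM in yijin low. High and low doses did not overlap in either extract. The change was −0.77 ± 0.06 in schisandra and −0.36 ± 0.06 in yijin, with a difference of −0.42 ± 0.085 (adjusted p = 0.00742) that was −0.32 (adjusted p = 0.0675) without replicate 1 of schisandra low.

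That library held the highest level of each of the 7 metallothioneins among the 12. MT1G had 8.49, 8.78 and 8.84 CPM in schisandra high, against 133, 50.8 and 49.8 CPM in schisandra low, and 12.9, 12.8 and 12.1 CPM in yijin high, against 56.5, 60.5 and 56.0 CPM in yijin low. The difference was −0.98 ± 0.35 (adjusted p = 0.159) and −0.34 without that library (adjusted p = 0.8), and the median difference of the 8 genes was then −0.33. MT1X and MT1E gave differences of −0.88 and −1.02 (adjusted p = 0.0665 and 0.0866). Metallothionein genes are close copies of one another, so their reads could be split between copies.

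Of zinc importers, SLC39A4 and SLC39A10 met the rule for named genes, and the others of the family are not described here. SLC39A4, which imports zinc across the plasma membrane, rose in both and further in schisandra, with 149, 152 and 161 CPM in schisandra high, against 73.2, 95.8 and 89.8 CPM in schisandra low, and 125, 133 and 138 CPM in yijin high, against 92.6, 94.1 and 94.0 CPM in yijin low. Its difference of 0.34 ± 0.08 (adjusted p = 0.0247) was 0.23 without replicate 1 of schisandra low (adjusted p = 0.166). SLC39A4 was called in 6 of the 12 fits that leave out 1 library. SLC39A10, another importer, was alike in both, with 24.7, 26.7 and 27.3 CPM in schisandra high, against 14.6, 12.2 and 13.7 CPM in schisandra low, and 24.8, 27.5 and 24.2 CPM in yijin high, against 13.1, 13.0 and 13.3 CPM in yijin low. The change was 0.95 in schisandra and 0.96 in yijin, with a 95% interval of the difference from −0.24 to 0.23.

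ATF4 targets, which serve amino acid synthesis and import and the response to stress, gave the list with the most calls in the difference. Of 26 tested, 4 were called (ASNS, SESN2, NUPR1 and DDIT4), all positive. In schisandra 9 rose and 1 fell, and in yijin 2 rose and 6 fell. The median change was 0.13 in schisandra and −0.10 in yijin, with a median difference of 0.21, against 0.0036 over all tested genes, and 24 of the 26 differences were above 0. After the length and GC correction 6 were called, all positive, with a median difference of 0.16, and without replicate 1 of schisandra low the median difference was 0.18.

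ASNS, which makes asparagine, moved in opposite directions. It had 40.1, 43.1 and 42.0 CPM in schisandra high, against 39.0, 32.1 and 37.3 CPM in schisandra low, and 29.4, 29.8 and 31.7 CPM in yijin high, against 35.4, 33.6 and 35.6 CPM in yijin low. The high dose lay above the low dose in every schisandra library and below it in every yijin library. It rose by 0.21 ± 0.05 in schisandra (adjusted p = 0.00569) and changed by −0.20 ± 0.052 in yijin (adjusted p = 0.00765), and the stable difference was 0.41 ± 0.072 (adjusted p = 0.00191).

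DDIT4, an inhibitor of the growth regulator mTORC1 and also a target of hypoxia factors, differed most in size among stable genes that moved with schisandra alone. Its levels were 33.9, 38 and 32.9 CPM in schisandra high, against 18.0, 21.4 and 22.3 CPM in schisandra low, and 22.0, 23.6 and 24.0 CPM in yijin high, against 23.1, 25.3 and 25.3 CPM in yijin low. The schisandra doses did not overlap and the yijin doses did, while all 12 libraries lay above vehicle, at 14.9, 15.4 and 16.1 CPM. The change was 0.77 ± 0.1 in schisandra and −0.083 ± 0.1 in yijin, with a difference of 0.85 ± 0.14 (adjusted p = 0.00117). SESN2, a leucine sensor that also restrains mTORC1, had 28.0, 30.2 and 26.9 CPM in schisandra high, against 19.1, 24.0 and 23.8 CPM in schisandra low, and 24.0, 22.5 and 23.9 CPM in yijin high, against 27.2, 27.9 and 24.6 CPM in yijin low. It rose in schisandra by 0.36 ± 0.072, stood at −0.18 ± 0.073 in yijin (adjusted p = 0.138), and differed by 0.54 ± 0.1 (adjusted p = 0.0038).

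NUPR1, a stress-induced nuclear protein, changed by −0.52 ± 0.13 in yijin (adjusted p = 0.00487), with a difference of 0.67 ± 0.17 close to the threshold (adjusted p = 0.0468). It was called in 1 of the 12 fits that leave out a library and not after the correction (adjusted p = 0.0865). PHGDH, the first enzyme of serine synthesis, and TRIB3, a pseudokinase, fell in yijin, at −0.24 ± 0.053 and −0.23 ± 0.061, and their differences of 0.28 ± 0.074 and 0.31 ± 0.086 did not pass (adjusted p = 0.0563 and 0.064). GDF15, a secreted stress hormone, rose in both, by 1.07 in schisandra and 0.70 in yijin, with a difference of 0.36 ± 0.12 (adjusted p = 0.122).

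The 9 genes called in both changes with unlike signs (0.0532% of the genes tested) had small changes in each extract. Besides ASNS, 4 rose in schisandra and fell in yijin, and in all 4 the high and low doses did not overlap in either extract. They were ADAMTSL4, a protein of the extracellular matrix (changes of 0.24 in schisandra and −0.28 in yijin, difference 0.52 ± 0.094), CYGB, cytoglobin (0.26 and −0.26, difference 0.51 ± 0.092), NDST2, an enzyme of heparan sulfate synthesis (0.23 and −0.22, difference 0.45 ± 0.086), and CYP2W1, a cytochrome P450 found in tumours (0.21 and −0.23, difference 0.43 ± 0.092). The first 3 of these were stable, and CYP2W1 was not called without replicate 1 of schisandra low (adjusted p = 0.0691). CYGB had 24.1, 25.5 and 22.5 CPM in schisandra high, against 19.6, 20.1 and 20.8 CPM in schisandra low, and 18.7, 19 and 20.2 CPM in yijin high, against 23.1, 22.8 and 23.3 CPM in yijin low.

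The other 4 fell in schisandra and rose in yijin, again with no overlap between doses in either extract. ARHGAP11A, a GTPase-activating protein of dividing cells, had 73.3, 73.3 and 77.6 CPM in schisandra high, against 86.0, 86.7 and 81.7 CPM in schisandra low, and 86.2, 86.4 and 86.3 CPM in yijin high, against 79.3, 79.6 and 75.4 CPM in yijin low. Its difference was −0.33 ± 0.056 (adjusted p = 0.00145). DKC1, the pseudouridine synthase of small nucleolar RNA particles and of telomerase, changed by −0.16 and 0.13 (difference −0.29 ± 0.055), and FKBP4, a co-chaperone of HSP90, by −0.11 and 0.14 (difference −0.25 ± 0.047). These 3 were stable. ITGA6, an integrin subunit that binds laminin, changed by −0.16 and 0.16 (difference −0.32 ± 0.072, and −0.25 with an adjusted p of 0.147 without replicate 1 of schisandra low).

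The differences called among chaperones and ribosome biogenesis genes were negative. Of 19 genes of the unfolded protein response, 2 rose and 1 fell in schisandra and 4 rose in yijin, and 2 were called in the difference, both negative (HSPA5 and CANX). The median change was −0.029 in schisandra and 0.082 in yijin. HSPA5, the main chaperone of the endoplasmic reticulum lumen, had 1080.5, 1152 and 1139 CPM in schisandra high, against 1204, 1216 and 1162 CPM in schisandra low, and 1331, 1348 and 1306 CPM in yijin high, against 1167, 1149 and 1134 CPM in yijin low. The high dose lay below the low dose in every schisandra library and above it in every yijin library. It stood at −0.087 ± 0.035 in schisandra (adjusted p = 0.127), rose by 0.21 ± 0.035 in yijin (adjusted p = 3.54e-05), and had a stable difference of −0.29 ± 0.049 (adjusted p = 0.00106). For CANX, calnexin, the difference of −0.19 ± 0.05 (adjusted p = 0.0468) was −0.11 after the length and GC correction (adjusted p = 0.161). CANX was called in 3 of the 12 fits that leave out 1 library.

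Cytosolic chaperones of the heat shock list were called in the difference for 2 of 15, HSPH1 at −0.30 ± 0.066 and HSPA4 at −0.21 ± 0.055, both nucleotide exchange factors for HSP70. After the correction their adjusted p-values were 0.068 and 0.0534. HSPH1 was called in 10 of the 12 fits that leave out 1 library, and HSPA4 in 3. In schisandra 6 members fell and 0 rose, and in yijin 1 rose and 0 fell, with a median change of −0.12 in schisandra and 0.028 in yijin. Of 28 ribosome biogenesis genes, 1 rose and 1 fell in schisandra and 14 rose in yijin, and 2 were called in the difference, DKC1 and the nucleolar helicase DDX21 (−0.29 ± 0.072), both negative. The median change was 0.0074 in schisandra and 0.15 in yijin. With libraries scaled by their totals alone the schisandra median was −0.033, 7 genes rose in yijin and DDX21 missed the threshold (adjusted p = 0.0501). DDX21 was called in 4 of the 12 fits that leave out 1 library. Among 31 proteasome subunits 1 rose in schisandra and 8 in yijin, and 0 were called in the difference. The proteasome median was −0.011 in schisandra and 0.13 in yijin, and the schisandra median was 0.043 after the length and GC correction.

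Of 28 mitotic genes tested, 10 fell and 0 rose in schisandra, 0 were called in yijin, and 2 were called in the difference, both negative. CCNB1, the cyclin that partners CDK1 at mitotic entry, had 109.8, 110.1 and 109.9 CPM in schisandra high, against 135, 128 and 121 CPM in schisandra low, and 126, 128 and 130.0 CPM in yijin high, against 119.8, 122 and 128 CPM in yijin low. It changed by −0.22 ± 0.042 in schisandra and differed by −0.28 ± 0.06 (adjusted p = 0.00978), against −0.24 (adjusted p = 0.0723) without replicate 1 of schisandra low. NEK2, a kinase that splits centrosomes, differed by −0.39 ± 0.083 (adjusted p = 0.00978), and its adjusted p was 0.0904 without that library and 0.0715 after the length and GC correction. The median difference of the list was −0.15, and 27 of the 28 differences were below 0. With libraries scaled by their totals alone, 18 fell in schisandra and the median change in yijin was −0.011, against 0.010 here. DNA replication genes gave 0 calls in the difference among 28, with a median of −0.042. As 0.957% of all tested genes were called, 0 calls among 28 is near that share.

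Of 32 glycolysis and hypoxia genes tested, 25 rose and 0 fell in schisandra, 14 rose and 0 fell in yijin, and 13 rose in both, with a median change of 0.35 in schisandra and 0.22 in yijin. The 1 member called in the difference was DDIT4, and the median difference was 0.13. ALDOA, aldolase A, rose by 0.58 in schisandra and 0.34 in yijin (difference 0.24 ± 0.083, adjusted p = 0.161). PFKFB3, which makes an activator of glycolysis, rose by 0.83 in schisandra and stood at −0.0085 in yijin (difference 0.84 ± 0.23, adjusted p = 0.0624). IGFBP1, which the liver secretes to bind insulin-like growth factors, rose in both, with 126, 148 and 190.1 CPM in schisandra high, against 38.2, 30.4 and 56.5 CPM in schisandra low, and 95.5, 113 and 105 CPM in yijin high, against 49.2, 57.2 and 53.4 CPM in yijin low. Its replicates spread widely within schisandra, and the difference of 0.92 ± 0.37 did not pass (adjusted p = 0.231).

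Besides these, the genes that moved with schisandra alone held several liver transporters and enzymes. SLC51A, a subunit of the basolateral bile acid exporter, had 7.34, 5.72 and 7.01 CPM in schisandra high, against 2.44, 3.86 and 3.86 CPM in schisandra low, and 4.24, 4.37 and 4.84 CPM in yijin high, against 4.58, 4.81 and 4.53 CPM in yijin low. Its difference of 1.06 ± 0.22 (adjusted p = 0.00742) was 0.85 without replicate 1 of schisandra low (adjusted p = 0.0675). ADH4, an alcohol dehydrogenase, had 18.2, 16.9 and 17.4 CPM in schisandra high, against 28.1, 28.4 and 24.1 CPM in schisandra low, and 20.7, 23.5 and 22.7 CPM in yijin high, against 24.3, 23.4 and 24.2 CPM in yijin low. Its difference was −0.52 ± 0.096 (adjusted p = 0.00365), and that of UGT2B10, which adds glucuronic acid to drugs and nicotine, was −0.44 ± 0.086 (adjusted p = 0.00446), both stable. DKK1, a secreted inhibitor of Wnt signalling, differed by −0.57 ± 0.12 (adjusted p = 0.00774) and by −0.41 without replicate 1 of schisandra low (adjusted p = 0.0765), which was its highest library.

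Stable positive differences with schisandra alone were also seen for PIGZ, a mannosyltransferase of glycosylphosphatidylinositol anchors (0.60 ± 0.12), and for TGFBI, a matrix protein induced by TGF-beta (0.22 ± 0.046). TGFBI had 381, 386 and 387 CPM in schisandra high, against 321, 330.5 and 338 CPM in schisandra low, and 341, 347 and 348 CPM in yijin high, against 346, 339.7 and 352 CPM in yijin low, with overlap between the yijin doses. ERRFI1, a feedback inhibitor of the EGF receptor that was chosen after its values were seen, differed by 0.31 ± 0.064 (adjusted p = 0.00786).

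Among genes that moved with yijin alone, AKAP12, a scaffold for protein kinase A, gave the smallest adjusted p of those with a negative difference. It had 96.5, 100 and 97.3 CPM in schisandra high, against 87.1, 93.5 and 93.3 CPM in schisandra low, and 136, 149 and 144 CPM in yijin high, against 87.7, 90.0 and 85.7 CPM in yijin low. Yijin high lay above all other libraries of the 12, and the change was 0.10 ± 0.066 in schisandra (adjusted p = 0.415) and 0.71 ± 0.066 in yijin (adjusted p = 1.07e-10). The difference was −0.60 ± 0.093 (95% interval −0.79 to −0.42, adjusted p = 4.41e-04). CAPN2, a calcium-dependent protease, differed by −0.48 ± 0.08 (adjusted p = 0.00106), and ABCB1, the drug exporter P-glycoprotein, by −0.35 ± 0.083 (adjusted p = 0.0257). For ABCB1, 78.6, 83.5 and 78.3 CPM in yijin high stood against 64.8, 62.8 and 62.2 CPM in yijin low. The difference was called in 7 of the 12 fits that leave out 1 library. It was not called without replicate 1 of schisandra low (adjusted p = 0.142).

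MYOF, a membrane repair protein of the ferlin family, and PCSK5, a proprotein convertase, were stable genes of low level chosen after their values were seen, with negative differences over 2-fold. MYOF had 1.80, 1.73 and 1.79 CPM in schisandra high, against 2.36, 1.83 and 1.36 CPM in schisandra low, and 3.45, 3.75 and 3.27 CPM in yijin high, against 1.22, 1.41 and 1.56 CPM in yijin low. The difference was −1.41 ± 0.27 (adjusted p = 0.0037), and that of PCSK5 was −1.70 ± 0.35 (adjusted p = 0.00786). PCSK5 changed by 1.11 in yijin (adjusted p = 0.00144) and stood at −0.59 in schisandra (adjusted p = 0.168), so part of its difference lies in schisandra.

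Of 23 secreted and carrier proteins of hepatocytes, 3 rose and 3 fell in schisandra, against 1 that rose and 11 that fell in yijin. The median change was −0.018 in schisandra and −0.21 in yijin, with 21 of 23 differences above 0 and a median difference of 0.19. The complement factor gene CFB was the 1 member called in the difference (0.27 ± 0.061, adjusted p = 0.0149). It was called in 7 of the 12 fits that leave out 1 library. Its adjusted p was 0.0691 without replicate 1 of schisandra low. After the length and GC correction 5 members were called, all positive, and with libraries scaled by their totals alone 0 were. ALB, albumin, had 7638, 8175 and 8217 CPM in schisandra high, against 8776, 7866 and 7983 CPM in schisandra low, and 7142, 7369 and 7315 CPM in yijin high, against 7827, 7954 and 7884 CPM in yijin low, and its difference of 0.082 ± 0.085 did not pass (adjusted p = 0.714).

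SERPINA5, the protein C inhibitor and not a member of that list, was a stable gene chosen after its values were seen. It had 359, 389 and 406 CPM in schisandra high, against 396, 379 and 410.3 CPM in schisandra low, and 305, 305 and 304 CPM in yijin high, against 402, 398 and 384 CPM in yijin low. Yijin high lay below all other libraries of the 12, and the difference was 0.33 ± 0.059 (adjusted p = 0.00204). AGXT, the peroxisomal enzyme that removes glyoxylate, had 19.9, 21.7 and 23.7 CPM in schisandra high, against 20.4, 22.7 and 22.3 CPM in schisandra low, and 15.3, 13.1 and 16.4 CPM in yijin high, against 21.4, 21.9 and 23.5 CPM in yijin low. The change was −0.0009 ± 0.071 in schisandra (adjusted p = 0.999) and −0.58 ± 0.074 in yijin (adjusted p = 1.82e-07), and the gene differed by 0.58 ± 0.1 (adjusted p = 0.00194). ITIH3, a heavy chain that binds hyaluronan, differed by 0.32 ± 0.068 (adjusted p = 0.00847). It changed by −0.18 in yijin (adjusted p = 0.0119) and stood at 0.14 in schisandra (adjusted p = 0.0558). INHBE, a liver-secreted activin subunit, differed by 0.62 ± 0.13 (adjusted p = 0.00978, and 0.0904 without replicate 1 of schisandra low). STAR, a mitochondrial cholesterol carrier of low level in these cells, was also chosen after its values were seen. It had 3.85, 3.95 and 4.25 CPM in schisandra high, against 3.83, 4.05 and 3.90 CPM in schisandra low, and 1.71, 2.7 and 2.48 CPM in yijin high, against 4.96, 4.15 and 4.33 CPM in yijin low, with a stable difference of 0.98 ± 0.15 (adjusted p = 3.23e-04).

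Most sterol synthesis genes fell in both extracts. Of 20 tested, 18 fell in schisandra and 19 in yijin, 18 were called in both with 1 sign, and the median change was −0.30 in schisandra and −0.38 in yijin. HMGCS1, which makes HMG-CoA, had 289, 284 and 283 CPM in schisandra high, against 508, 396 and 414 CPM in schisandra low, and 276, 269 and 256 CPM in yijin high, against 412, 398 and 388 CPM in yijin low. The change was −0.62 ± 0.056 in schisandra and −0.58 ± 0.056 in yijin, with a 95% interval of the difference from −0.20 to 0.12. DHCR7, the last enzyme of the cholesterol pathway, fell in yijin alone, while PMVK, phosphomevalonate kinase, was called in neither extract. DHCR7 had 287, 302 and 296 CPM in schisandra high, against 303, 296 and 324 CPM in schisandra low, and 258, 254 and 254 CPM in yijin high, against 324, 319 and 329.9 CPM in yijin low. It stood at −0.058 ± 0.042 in schisandra, changed by −0.34 ± 0.042 in yijin, and gave the 1 call of the list in the difference (0.29 ± 0.06, adjusted p = 0.00792).

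Fatty acid synthesis genes fell as well, 10 of 14 in each extract, with a median change of −0.20 in schisandra and −0.34 in yijin. ACSS2, which makes acetyl-CoA from acetate, had 102, 106 and 104 CPM in schisandra high, against 147, 144 and 155 CPM in schisandra low, and 82.5, 83.2 and 83.8 CPM in yijin high, against 148, 152 and 156 CPM in yijin low. It changed by −0.52 ± 0.041 in schisandra and −0.87 ± 0.041 in yijin, and the stable difference of 0.35 ± 0.058 (adjusted p = 0.00106) was the 1 call of the list. TRIM50, a ubiquitin ligase, and KLB, the liver co-receptor for FGF21 and FGF19, were also called in both with the larger fall in yijin. Their differences were 0.50 ± 0.11 (adjusted p = 0.009) and 0.24 ± 0.057 (adjusted p = 0.0271). Without replicate 1 of schisandra low, TRIM50 was not called (adjusted p = 0.0692). KLB was called in 6 of the 12 fits that leave out 1 library.

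**Figure D3:**
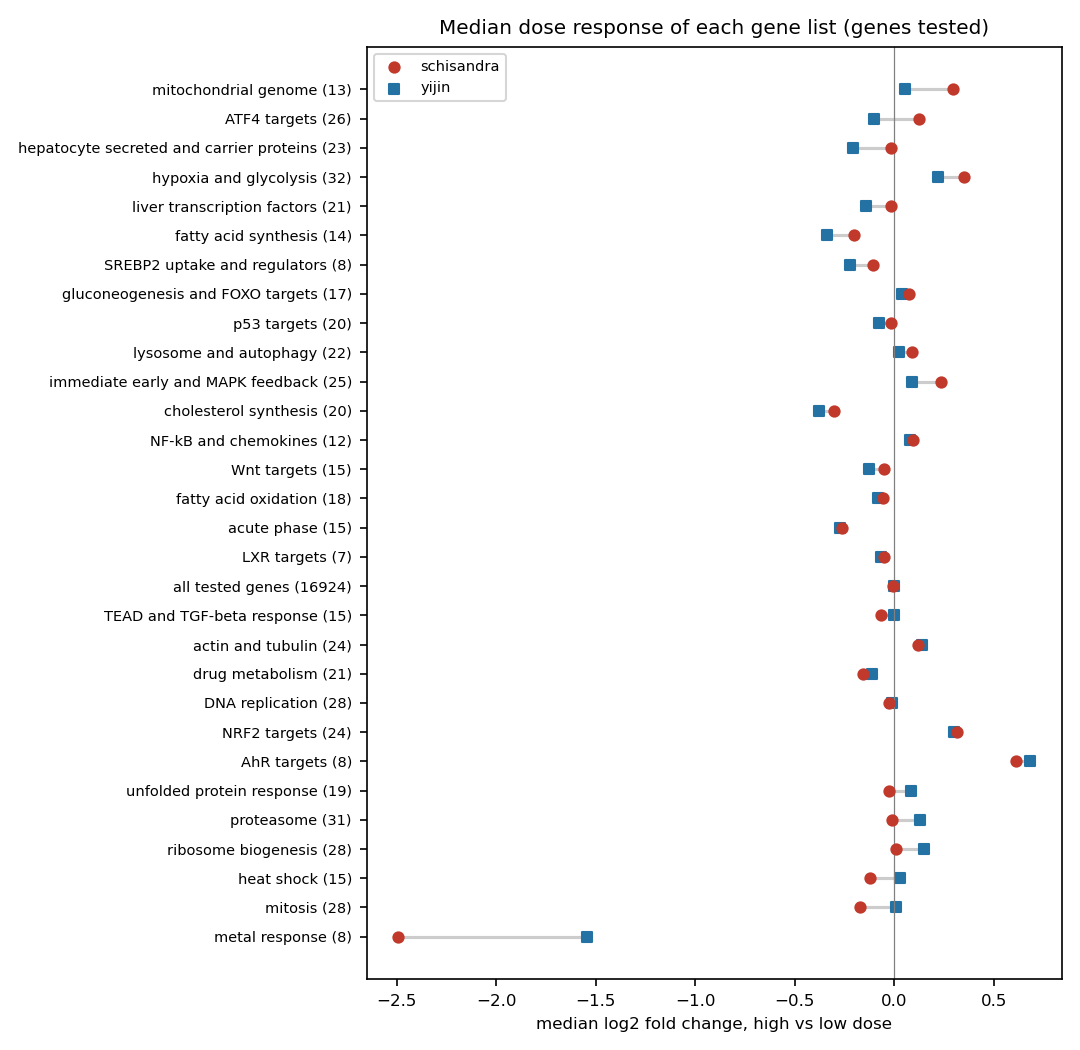
Median log2 change between high and low dose (x axis) of the tested members of each gene list, in schisandra (red circles) and in yijin (blue squares), with the number tested in brackets and lists in order of the median difference. The metal response list lies farthest to the left in both, at −2.49 and −1.54, the ATF4 medians lie on either side of 0, and all tested genes lie at 0.

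Genes with like responses were defined by 3 conditions, a call in both extracts with 1 sign, a change of at least 0.5 in size in both, and a 95% interval of the difference inside 1.5-fold either way (0.585 on the log2 scale). Of 423 genes called in both with 1 sign (2.5%), 214 were higher (1.26%) and 209 lower (1.23%). Of the 423, 57 changed by at least 0.5 in both, and 27 of them were alike (0.16% of the genes tested), 19 higher (0.112%) and 8 lower (0.0473%). For 29 of the 57 the interval was too wide to be alike and the difference was not called. Among the 57 the difference was called for 4 (0.0236%). For 3 of the 27 (0.0177% of the genes tested), ACSS2, NEDD9 and AKR1B10, the difference was also called, so that it was above 0 in size yet within 1.5-fold. In all 27 the high-dose libraries lay above or below every low-dose library in both extracts, which the call in both selects for. A limit of 0.32 on the log2 scale left 12 of the 27.

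**Figure D4:**
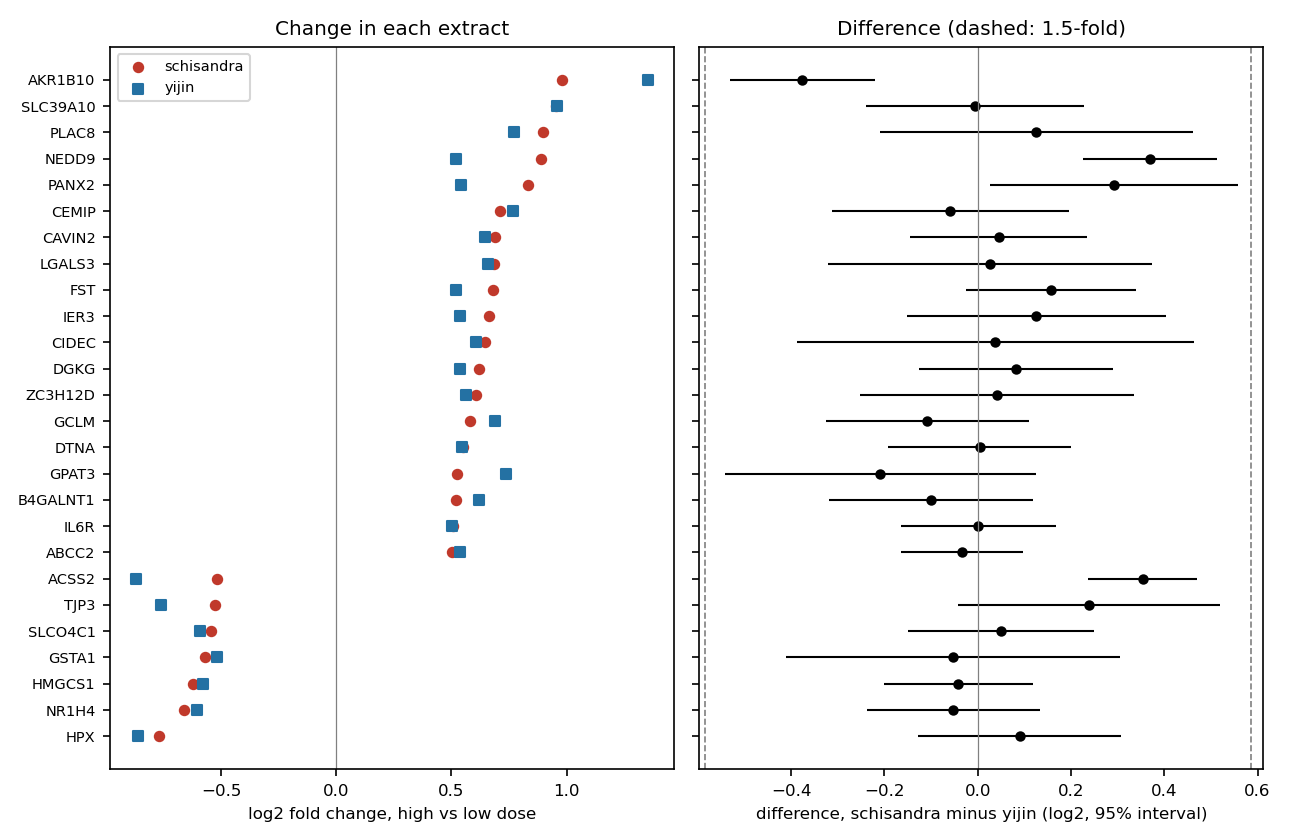
The 26 alike genes of at least 5 CPM, with the log2 change between high and low dose in schisandra (red circles) and in yijin (blue squares) on the left, and the difference, schisandra minus yijin, with its 95% interval on the right. Dashed lines mark 1.5-fold, and all intervals lie between −0.54 and 0.56.

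Alike genes that fell included regulators and secreted proteins of the liver. HPX, hemopexin, which carries free haem in plasma, had 9.21, 10.8 and 8.09 CPM in schisandra high, against 16.2, 16.7 and 15.1 CPM in schisandra low, and 9.60, 8.75 and 10.2 CPM in yijin high, against 18.3, 16.1 and 17.2 CPM in yijin low (95% interval of the difference from −0.13 to 0.31). NR1H4, the bile acid receptor FXR, had 27.8, 26.3 and 29.3 CPM in schisandra high, against 51.3, 42.8 and 37.0 CPM in schisandra low, and 28.6, 28.7 and 25.0 CPM in yijin high, against 42.1, 41.0 and 42.3 CPM in yijin low (95% interval of the difference from −0.24 to 0.13). SLCO4C1, an organic anion transporter, changed by −0.54 in schisandra and −0.59 in yijin. GSTA1, a glutathione transferase with close copies such as GSTA2, changed by −0.57 and −0.52, and reads of the copies could be split.

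Alike genes that rose included ABCC2, the canalicular exporter of conjugates, with 469, 454 and 465 CPM in schisandra high, against 337, 318 and 325 CPM in schisandra low, and 453, 446 and 465 CPM in yijin high, against 322, 313 and 306 CPM in yijin low. It rose by 0.50 in schisandra and 0.54 in yijin, with a 95% interval of the difference from −0.16 to 0.10. CEMIP, which breaks down hyaluronan, rose by 0.71 in schisandra and 0.77 in yijin, and CAVIN2, a coat protein of caveolae, by 0.69 and 0.64. LGALS3, galectin 3, rose by 0.68 and 0.66, and PLAC8, a small cysteine-rich protein, by 0.90 and 0.77. IL6R, the interleukin 6 receptor, rose by 0.51 and 0.50, with a 95% interval of the difference from −0.16 to 0.17.

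NEDD9, a scaffold of focal adhesions, was both alike by the 1.5-fold limit and called in the difference. It had 153, 152 and 156 CPM in schisandra high, against 85.9, 78.7 and 84.7 CPM in schisandra low, and 124, 126 and 128 CPM in yijin high, against 86.4, 88.7 and 89.0 CPM in yijin low, with a stable difference of 0.37 ± 0.071 (adjusted p = 0.0038). CYP24A1, which inactivates vitamin D, rose further in schisandra as well, by 0.80 against 0.31 in yijin. Its difference of 0.49 ± 0.11 (adjusted p = 0.00978) was not called without replicate 1 of schisandra low (adjusted p = 0.0537).

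The 13 transcripts of the mitochondrial genome gave 0 calls in either extract or in the difference, 4 calls (higher) in schisandra after the length and GC correction, and 12 of their 13 differences were above 0. The median change was 0.29 in schisandra and 0.051 in yijin. MT-CO1, a subunit of cytochrome oxidase, had 21012, 19249.7 and 16458 CPM in schisandra high, against 16366, 15787 and 15439.6 CPM in schisandra low, and 19214, 17885 and 17268 CPM in yijin high, against 16948, 18126 and 17388 CPM in yijin low, and its difference was 0.20 ± 0.16 (adjusted p = 0.608). Lists with 0 calls in the difference were also SREBP2 uptake genes and regulators (8 tested), fatty acid oxidation (18), LXR targets (7), immediate early genes and MAPK feedback (25), liver transcription factors (21), gluconeogenesis and FOXO targets (17), NF-kB targets and chemokines (12), lysosome and autophagy (22), and actin and tubulin (24). Their median differences ran from −0.015 to 0.12. As 0.957% of all tested genes were called in the difference, 0 calls in lists of 7 to 25 genes is near that share. Lists with 1 call were TEAD and TGF-beta response (15, TGFBI), acute phase (15, ITIH3), p53 targets (20, DDB2, at 0.27 ± 0.059) and Wnt targets (15, DKK1), and drug metabolism (21) had 2, UGT2B10 and ABCB1.

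At the medium dose the difference of responses against the low dose gave 0 calls by edgeR, 0 by DESeq2 and 211 by edgeR without the filter on low counts, with 1848 genes (10.9%) at an unadjusted p under 0.05, against 2336 (13.8%) at the high dose. Against the low dose, 12 genes were called with medium schisandra (0.0709%) and 1 with medium yijin (0.00591%). Of the 162 genes, 160 had the same sign at the medium dose and 104 had an unadjusted p under 0.05 there, but both differences use the same low-dose libraries and are not independent. For CYP1A1, medium schisandra had 13.0, 11.4 and 11.0 CPM and medium yijin had 14.2, 13.1 and 13.0 CPM, and the difference was −0.14 ± 0.12 (unadjusted p = 0.232). For CYGB it was 0.33 ± 0.093 (unadjusted p = 8.31e-04) and for AKAP12 −0.18 ± 0.094 (unadjusted p = 0.0639).

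**Figure D5:**
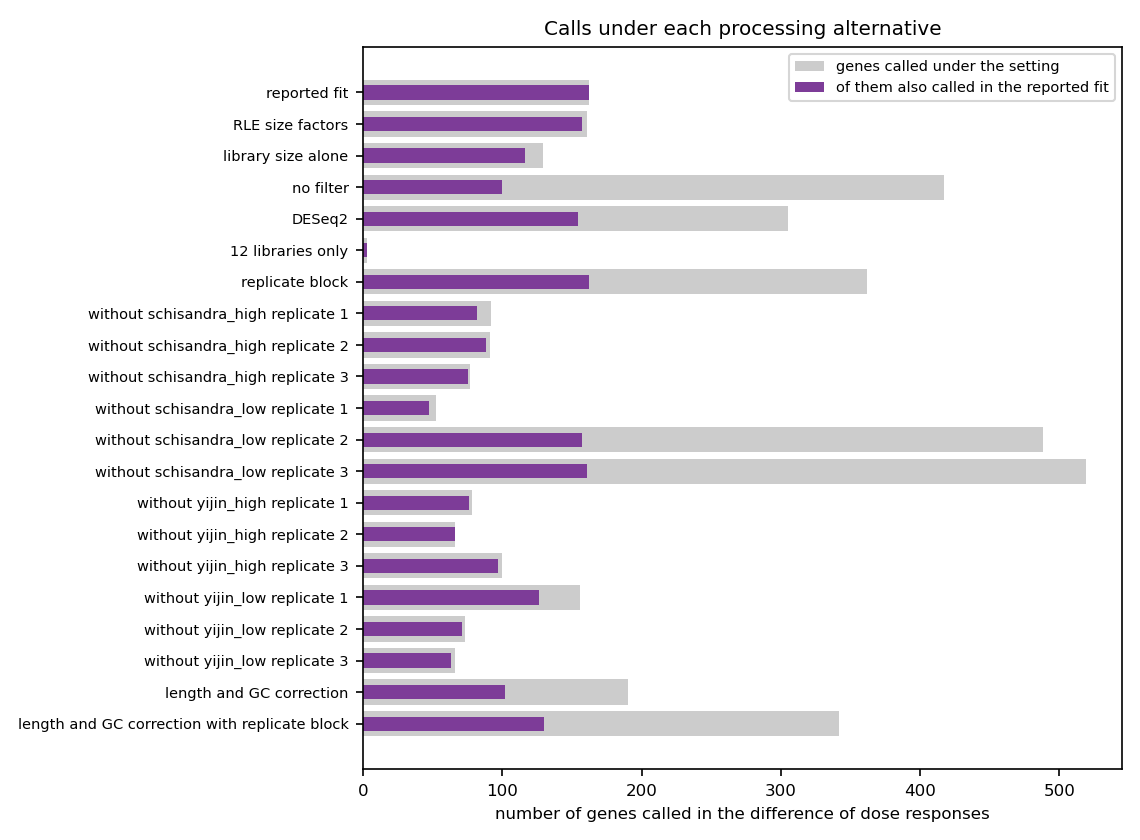
Number of genes called in the difference of dose responses (x axis) under each way of processing, with the part also called in the reported fit in purple. The counts run from 3 with the 12 libraries alone to 519 without replicate 3 of schisandra low.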

How the data were processed

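Total RNA (integrity number above 7) of treated HepG2 cells was sequenced as 100 bp read pairs from a strand-specific library kit, per the labels' protocols. The authors deposited gene-level expected counts. The submitters' processing notes name FastQC 0.11.9, Trim Galore 0.6.5, STAR 2.7.3a, RSEM 1.3.3 and the build hg38, and the annotation release and strand setting are not given in the sources used here. The deposited expected counts, 10.4% of which had a fraction, were rounded. With edgeR 4.0.16 (R 4.3.3), 1 mean was fitted for each of 19 groups over 54 libraries, so that all groups share 1 estimate of the spread, after TMM scaling and a filter on low counts that kept 16924 of 60675 gene IDs, of which 14980 had a symbol. Contrasts were tested with the quasi-likelihood F-test, with Benjamini-Hochberg adjustment over all tested genes and a threshold of 0.05. Levels are CPM, a gene's counts scaled to a common library total. SEs on the log2 scale were computed from the weights and the spread of the edgeR fit. The 95% intervals rest on these SEs and not on the F-test that gave the p-values. Totals ran from 20.7 to 38 M counts per library, and the precision depends on the spread among replicates as well as on these totals. Left out of the fit were 6 libraries of Polygalae Radix and Aucklandiae Radix extracts, with 1 per dose, and the wortmannin control that the series text names is not analysed here.

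The genes named were the 6 largest positive and negative called differences per class (at least 5 CPM), the 8 highest and lowest alike genes, up to 5 members by smallest p of each list with a called member, and 6 fixed genes. LYZ, PMVK, TRIB3, MT-CO1, ERRFI1, MYOF, PCSK5, SERPINA5, STAR, ABCC2 and IL6R are outside this rule and were chosen after their values were seen. The comparison, gene lists and rules were chosen with earlier results of these data known. Alternatives were other size factors, no filter, DESeq2 1.42.0, the 12 libraries alone, and the replicate number within each sample code as a block. Others were each replicate left out, other limits for alike genes, and a per-library correction for transcript length and GC content chosen after seeing the data. Promoters came from RefSeq (GRCh38.p14) and gene positions from GENCODE 29 (GRCh38). The fit was tested on simulated counts, with changes set in genes of higher counts in schisandra high only. It recovered 38% of 1.25-fold changes, 76% of 1.5-fold, 94% of 2-fold and 100% of 4-fold changes. Of its calls on the simulated counts, 6.67% were false. Whether these shares hold for the calls from the deposited counts, where replicate 1 of schisandra low stood apart, was not tested.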

Additional observations from a re-analysis of the deposited data

Results flagged for a closer look

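The signed dose response differed between the extracts by the test of the difference itself for 162 genes. Of these, 9 were also called in each extract with unlike signs. With schisandra up and yijin down, the log2 differences were 0.522 for ADAMTSL4, 0.511 for CYGB, 0.451 for NDST2, 0.432 for CYP2W1 and 0.409 for ASNS. With schisandra down and yijin up, they were −0.327 for ARHGAP11A, −0.317 for ITGA6, −0.292 for DKC1 and −0.248 for FKBP4. ITGA6 was called in 8 and CYP2W1 in 10 of the 12 fits that leave out 1 library. Neither was called without replicate 1 of schisandra low. The other 7 were called in all 12 of these fits and after the length and GC correction.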

How the results depend on the processing

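The count of 162 genes called in the difference depended on the processing, and no named gene that was called changed sign under the alternatives run, while list medians near 0 did. RLE size factors gave 161 calls (157 shared with the 162) and library totals alone 129 (116 shared), 60 of them positive. Without the filter on low counts there were 417 calls (184 positive, 233 negative, 100 shared), 25 genes with unlike signs and 211 calls at the medium dose. DESeq2 gave 305 (155 positive, 150 negative, 154 shared) and 14 unlike. With the 12 libraries alone there were 3 (1 positive, 2 negative), with 161 of the 162 genes keeping their sign, 0 unlike, 545 calls in schisandra and 727 in yijin, and the medium dose was not fitted. The replicate number within each sample code as a block gave 362 (216 positive, 146 negative, all 162 shared) and 17 unlike. The block with the length and GC correction gave 342 (188 positive, 154 negative, 130 shared), 15 unlike and 2186 calls in yijin, and the correction alone gave 190 (102 shared). Within an extract, 2 of 6 same-numbered pairs of replicates had a correlation of deviations over 0.1 (−0.103 to 0.18). Whether same-numbered libraries share a source was not tested. Leaving out 1 library gave 52 to 519 calls (35 to 277 positive, 17 to 242 negative), 3 to 19 unlike, 25 to 30 alike, 615 to 1825 in schisandra and 836 to 1586 in yijin. The alike count was 12 with a limit of 0.32 on the log2 scale and 205 with changes of at least 0.25. The 139 genes named by rule include genes not called in the reported fit, which had no call to lose. Of the named genes that were called, 38 lost their call without replicate 1 of schisandra low. With the 12 libraries alone, where 3 genes in all were called, 63 of the named genes lost it. The causes were not tested. Genes of few CPM, such as PCSK5, rest on few reads.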
